A study of Mus musculus with 38 samples.

Results

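Atmin encodes a zinc-finger protein, also known as Asciz, that was named for its interaction with the DNA damage kinase ATM. Its mRNA was followed through 24 h of retinoic acid treatment of Neuro2A cells, a mouse neuroblastoma line that puts out neurites in retinoic acid. The gene was represented by 1 probe (number 306, Entrez gene 234776) of 576, of which 473 carry exactly 1 gene in the platform annotation. It was picked because earlier results on these same arrays showed a gradual increase between 1 and 24 h that depended on the scaling and on the range of the arrays, so every comparison of Atmin between times is given below as a description, with its spread and with no test.

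The 38 arrays were single-colour hybridisations of Cy5-labelled polyadenylated RNA on oligonucleotide arrays of mouse KIAA genes. The 7 control arrays (0 h) held RNA of untreated cells, taken when they had grown for 48 h in 10% fetal bovine serum. The treated cells were then moved to medium with 2% serum and 20 uM all-trans-retinoic acid and sampled after 1 h (5 arrays), 3 h (5), 6 h (7), 12 h (7) or 24 h (7). Every replicate held the RNA of 4 to 6 plates. No label names a vehicle or a medium change alone, so the drug, the drop in serum and the hours in culture cannot be told apart in a comparison with 0 h, and all comparisons with 0 h share the same 7 controls. Nothing in the labels says that replicates were separate cultures, so the spread between them may be technical. In RNA from whole plates, a change in the share of cells that use a gene and a change in RNA per cell cannot be told apart.

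Retinoic acid enters the nucleus and binds receptors that sit on DNA as pairs over short repeated half-sites, which is how it starts neuronal differentiation programmes. ATMIN works on a different axis. It binds ATM and takes part in ATM signalling in the absence of DNA breaks, and it is a transcription factor that switches on Dynll1, the gene of the dynein light chain LC8, a small adaptor of the dynein motor and of many other complexes. LC8 binds back to ATMIN and dampens its activity. Mice without Atmin have defects in lung development and in cilia.

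The sequence before the annotated gene start is shown because the treatment is a ligand of DNA-binding receptors, and a reader may want to see what lies there. It is the + strand of chr8:116943143-116943382 (RefSeq, GRCm38.p6), 240 bases ending just before the first annotated base of the gene, and capitals mark the GC boxes (GGGCGG, either strand).
Atmin: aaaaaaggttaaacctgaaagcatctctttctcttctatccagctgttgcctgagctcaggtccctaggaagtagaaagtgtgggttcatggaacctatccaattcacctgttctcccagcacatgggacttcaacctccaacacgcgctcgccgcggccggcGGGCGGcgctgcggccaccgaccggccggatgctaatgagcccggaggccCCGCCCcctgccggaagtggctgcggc
The window was 60.4% G or C and held 2 GC boxes, a motif found in the same window of 31.3% of 32851 RefSeq promoters. The receptor half-site AGGTCA and its variants AGTTCA and GGGTCA, searched on both strands, had 0 matches here, against shares of 13.5%, 11.4% and 11.2% of the promoters. No match says only that these letters are not in this window. Other forms were not searched, among them GGTTCA, whose letters do occur in it.

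On 30 arrays the lowest deposited value is the same, 0.540 (called the floor), and Atmin lay above it on each of them. On the other 8 no probe reaches the floor, so being above it says nothing there about Atmin. Levels are given as log2 intensity after quantile normalisation, which gives every array the same distribution, unless the deposited scale is named. On that scale the control arrays ran from 0.52 to 1.15 with a median of 0.78. At 1 h the 5 arrays were at 1.21, 0.67, 0.73, 0.44 and 0.78, and 3 of the 5 lay within the range of the controls. At 3 h they were at 1.20, 0.85, 0.25, 1.00 and 1.28, so that this group held values both below and above every control.

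From 6 h on more arrays lay above the controls, and the spread at 6 and 12 h was wider. The 6 h arrays ran from 0.62 to 2.18 with a median of 0.98, and 6 of 7 exceeded the control mean. The 12 h arrays ran from 0.45 to 2.12 with a median of 1.46, and 6 of 7 lay above every control while replicate 5 lay below every control. The 24 h arrays ran from 1.39 to 1.97 with a median of 1.51, and all 7 lay above every control. A full separation of this kind, all 24 h arrays brighter than all controls, was seen for 0.347% of the 576 probes, Atmin being 1 of the 2; since Atmin was chosen on this comparison, nothing is read from that share.

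**Figure D1:**
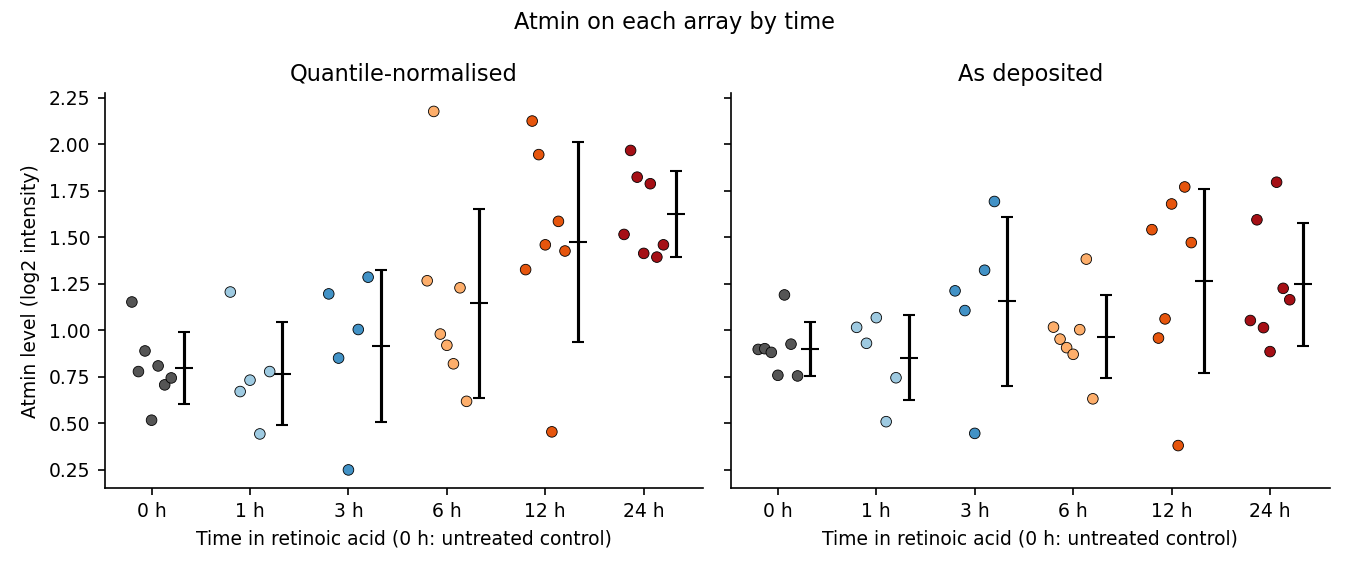
Each point is the Atmin level (log2 intensity) on 1 array, by time (the 6 times are evenly spaced on the axis), with the group mean and SD beside the points; left after quantile normalisation, right as deposited. On the left all 7 arrays at 24 h lie above all 7 controls, and on the right 3 of the 7 do.

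Group means ordered the times almost by duration. The control mean was 0.80 ± 0.19 (SD, n = 7). The 1 h arrays averaged 0.77 ± 0.28 and the 3 h arrays 0.92 ± 0.41 (n = 5 each). The later groups averaged 1.14 ± 0.51 after 6 h, 1.47 ± 0.54 after 12 h and 1.62 ± 0.23 after 24 h (n = 7 each). No neighbouring times differed by more than the pooled SD within groups, 0.39: the largest step, 12 h over 6 h, was 0.33. The whole span was larger than that spread. In the limma fit over all probes the difference from 0 h was -0.03 ± 0.22 (SE) for 1 h, 0.12 ± 0.22 for 3 h and 0.34 ± 0.20 for 6 h. It was 0.68 ± 0.20 for 12 h and 0.82 ± 0.20 for 24 h, the last a 1.77-fold difference. The median difference of all 576 probes at 24 h was -0.01.

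Within the treated arrays alone, which all had the change of medium, the course was similar in size. Hours in retinoic acid, in low serum and in culture increase together in these arrays, so they cannot be told apart here either. The mean of 12 and 24 h exceeded the mean of 1 and 3 h by 0.71 ± 0.16 (SE) on the log2 scale, 1.63-fold. A straight line through the 31 treated arrays had a slope of 0.20 ± 0.05 (SE) for each doubling of time. Ordered by their normalised difference, Atmin took place 3 from the top of 576 probes at 12 h, 6 at 24 h and 4 for late over early, against 43 at 6 h, 120 at 3 h and 348 at 1 h. Since Atmin was chosen for this course, nothing is read from these places. Its residual SD, 0.39, was larger than that of 60.1% of probes, whose median was 0.35, so its arrays scattered about as much as those of a typical probe.

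The normalised levels are set by the place of Atmin among the probes of its own array, so its places give the same course in another unit and add no separate evidence. Counted from the brightest of 576, its median place was 110 in the controls, with a range of 64.5 to 153. It was 117 after 1 h (59 to 166), 80 after 3 h (52 to 204) and 83 after 6 h (15 to 135.5). After 12 h it was 40 (16 to 164) and after 24 h 36.5 (20 to 44). The separation of 24 h from the controls is therefore the one given above. At 12 h the arrays other than replicate 5 ran from place 16 to 49, above every control, and replicate 5 was at place 164.

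**Figure D2:**
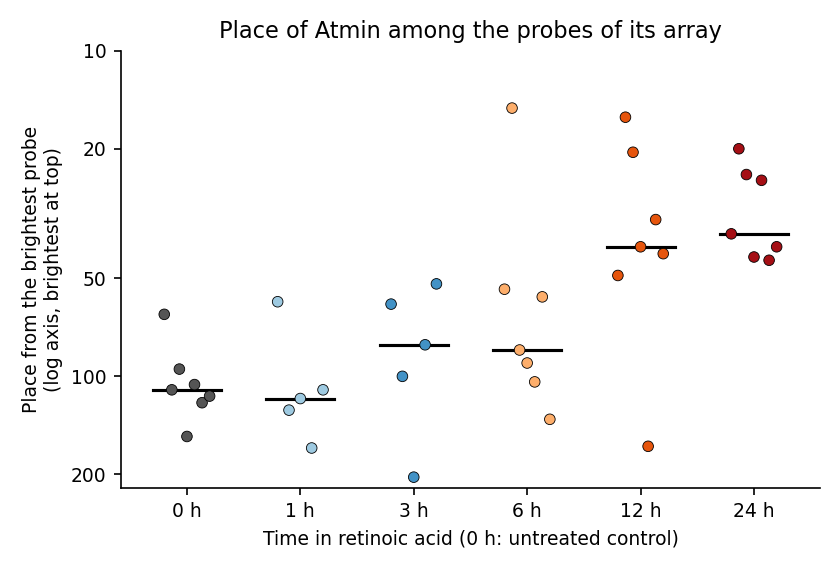
Each point is the place of Atmin from the brightest of the 576 probes on 1 array (log axis, brightest at the top), by time, with a line at the group median. The 24 h arrays sit between places 20 and 44, all above the controls, which sit between 64.5 and 153.

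On the values as deposited the difference was smaller and the means did not follow the order of the times. As linear intensity, Atmin ran from 1.85 to 3.47 with a median of 2.24 at 24 h, against 1.69 to 2.28 with a median of 1.86 in the controls. Of the 7 arrays at 24 h, 3 lay above every control and 4 within the range of the controls. On the deposited log2 scale the means in time order were 0.90 ± 0.15 (SD, n = 7), 0.85 ± 0.23 (n = 5), 1.16 ± 0.45 (n = 5), 0.97 ± 0.22 (n = 7), 1.27 ± 0.49 (n = 7) and 1.25 ± 0.33 (n = 7). On this scale 3 h exceeded 6 h, 12 h was level with 24 h, and no neighbouring times differed beyond the pooled SD of 0.33. The difference from 0 h was 0.35 ± 0.18 (SE) at 24 h and 0.36 ± 0.18 at 12 h. The slope was 0.08 ± 0.04 for each doubling of time.

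The range of the arrays moved with the course. Measured as the interquartile range of an array's deposited log2 values, it ran from 1.23 to 1.83 in the controls and from 1.41 to 1.74 over the arrays of 1 and 3 h. Later groups held much narrower arrays, with 0.39 to 1.52 after 6 h, 0.28 to 1.61 after 12 h and 0.58 to 1.06 after 24 h. The 8 arrays that never reach the floor, all of them at 6, 12 or 24 h, had lowest values between 0.549 and 0.817. An intensity added to every probe of an array would raise its lowest value and shrink its log2 differences as deposited; whether these arrays carry one was not tested, and the deposited differences at 6 to 24 h are read with that limit. Atmin followed the range in opposite directions on the 2 scales. With the group in the model, its level changed by -0.74 ± 0.17 (SE) for each unit of interquartile range after quantile normalisation, and by 0.33 ± 0.18 as deposited. The narrowest arrays carried the highest normalised levels outside 24 h: 6 h replicate 2 had a range of 0.39 and Atmin at 2.18, and 12 h replicates 2 and 3 had ranges of 0.28 and 0.44 and Atmin at 2.12 and 1.94. The same 3 arrays were at 0.95, 0.96 and 1.06 on the deposited scale, within the range of the controls.

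With the range as a term the results on the 2 scales came closer. At 24 h the difference from 0 h was then 0.36 ± 0.20 (SE) after normalisation and 0.56 ± 0.20 as deposited. At 12 h it was 0.40 ± 0.18 and 0.49 ± 0.18. For late over early times it was 0.27 ± 0.16 and 0.45 ± 0.17. All these were above 0, the normalised ones were smaller than without the term, and the deposited ones larger. The ranges at 24 h (0.58 to 1.06) and in the controls (1.23 to 1.83) did not overlap. The 24 h values therefore rest on a common slope carried across that gap.

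Arrays as wide as the controls gave a comparison in which the scales nearly coincide. The limit was the narrowest control, with a range of 1.23, and this choice was made after the values were seen. It kept 5 of 7 arrays at 12 h, 3 of 7 at 6 h and all at 1 and 3 h. At 12 h Atmin exceeded the controls by 0.49 ± 0.21 (SE) after normalisation and by 0.47 ± 0.21 as deposited, and 4 of the 5 arrays lay above every control on either scale. At 6 h it exceeded them by 0.21 ± 0.25 and 0.18 ± 0.24. For these differences the normalisation was run anew on the arrays kept, while the normalised count of 4 of 5 used the normalisation of all 38 arrays. No array at 24 h was as wide as a control (0 of 7), so time and array range cannot be told apart at 24 h.

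**Figure D3:**
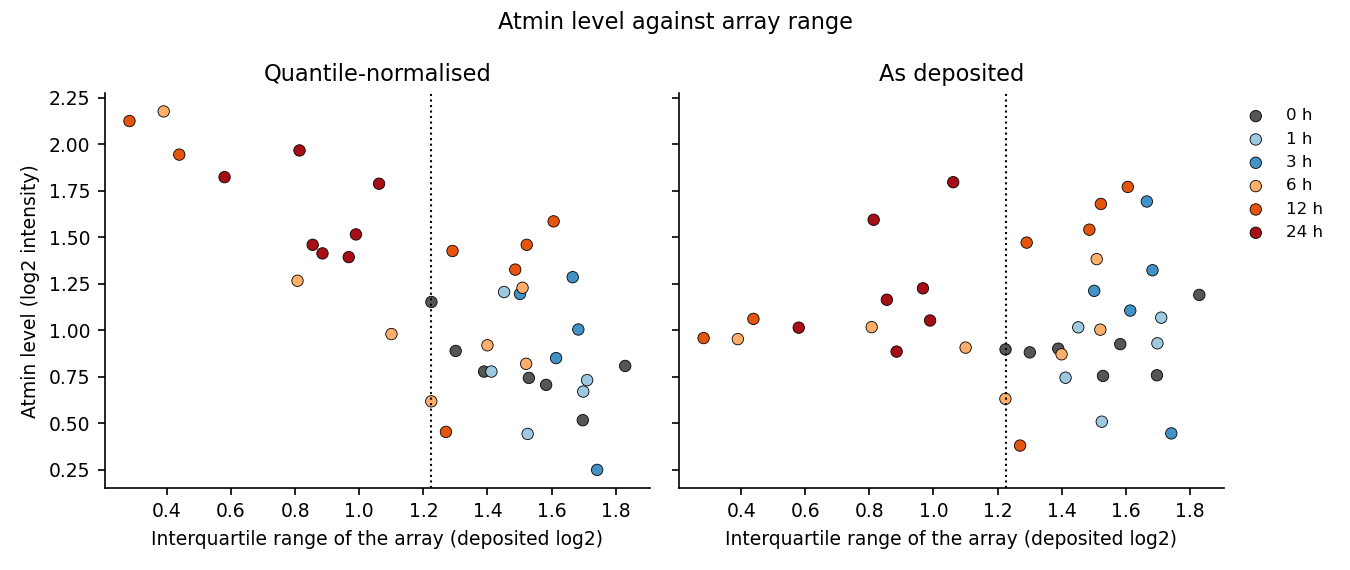
Each point is 1 array, coloured by time: its interquartile range (deposited log2 values, x axis) against its Atmin level (log2 intensity, y axis), left after quantile normalisation and right as deposited. The dotted line marks the narrowest control (1.23), and all 24 h arrays lie left of it. The narrowest arrays, 6 h replicate 2 and 12 h replicates 2 and 3, are high on the left panel. On the right they lie within the range of the controls, while 3 of the 7 arrays at 24 h lie above every control.

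Across 15 alternative processings the 24 h difference stayed above 0, between 0.28 with median centring and 1.06 with all arrays scaled to 1 interquartile range. Trend and robust variance and the replicate block could not change the 24 h difference, which stayed at 0.82, so they add nothing to that count. Leaving out dim probes, those at the floor on more than 50% of the arrays, gave 0.82 as well. Position correction, array weights and 1 of the range covariates started from the same normalised values, so the 15 are not independent. For late over early times the 15 values ran from 0.18 to 1.06 under the same 2 settings. Cyclic loess, which removes differences that depend on brightness, gave 0.88 ± 0.19 (SE) and 0.72 ± 0.15. Without the 8 arrays that never reach the floor, which include 4 of the 7 at 24 h, 2 at 12 h and 2 at 6 h, the values were 0.83 ± 0.23 and 0.61 ± 0.16. In that setting the 6 h difference from 0 h was 0.12 ± 0.19, level with 0.12 ± 0.19 at 3 h. The 12 h difference was 0.48 ± 0.19. Leaving out single arrays moved the 24 h difference between 0.77 (without control replicate 4) and 0.89 (without control replicate 1). At the earlier times single arrays weighed more. At 6 h the difference was 0.18 without replicate 2, against 0.34 with it. At 3 h it was 0.03 without replicate 5 and 0.28 without replicate 3, against 0.12 with both, and at 1 h it ran from -0.14 (without replicate 1) to 0.05 (without replicate 4), so its sign rested on single arrays.

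**Figure D4:**
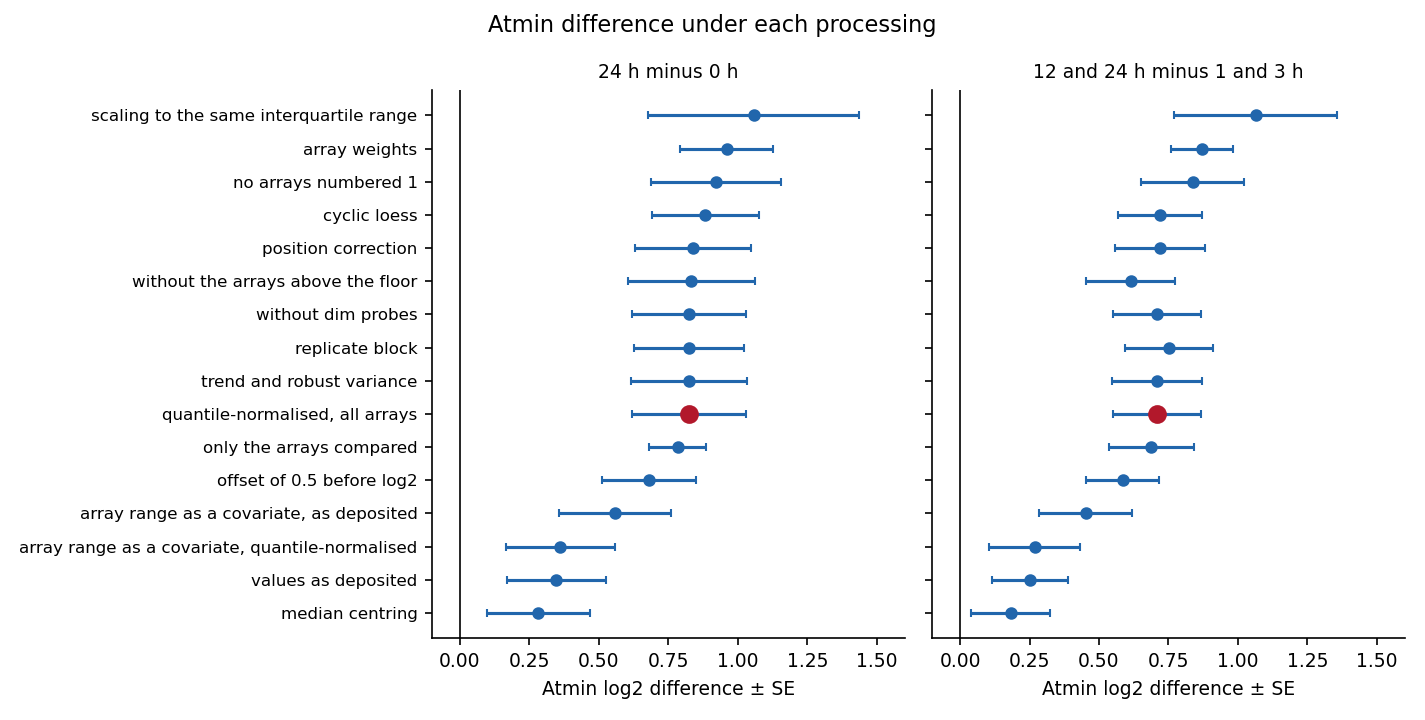
Atmin log2 difference with its SE under each processing, for 24 h minus 0 h (left) and for late times (12 and 24 h) minus early times (1 and 3 h) (right); the red point is the quantile-normalised fit. All points lie above 0, the lowest being median centring at 0.28 and 0.18.

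The genes most like Atmin were sought array by array. Likeness was Pearson's r over the 38 normalised arrays, which share whatever sets an array apart, and it was computed for 449 named genes that lay above the floor on at least 50% of the arrays; their median r was 0.05. The 5 most alike were Fnbp1, an F-BAR protein that bends membranes (r = 0.61), Rabgap1l, a protein that activates Rab GTPases (0.59), Cep170b, a centrosomal protein (0.58), Cyfip2, a subunit of the actin-regulating WAVE complex (0.55), and Map7d1, a microtubule-associated protein (0.55). The 3 least alike were Suz12, a subunit of Polycomb repressive complex 2 (r = -0.54), Asxl1, a Polycomb-associated regulator (-0.54), and the SUMO protease Senp7 (-0.54).

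Of the 5, Cep170b and Map7d1 also had normalised means that increased at each time from 3 h on. Cep170b averaged -0.41 ± 0.53 (SD, n = 7) in the controls, -0.42 ± 0.27 after 1 h and -0.66 ± 0.30 after 3 h (n = 5 each), and then -0.36 ± 0.36, -0.10 ± 0.58 and 0.18 ± 0.58 after 6, 12 and 24 h (n = 7 each). It lay at the floor on 11 of 38 arrays, 4 of them controls, so its values there are upper limits. Map7d1 had its lowest normalised mean at 3 h: it averaged 0.99 ± 0.51 (n = 7) in the controls and 0.30 ± 0.50 (n = 5) after 3 h. After 6, 12 and 24 h it averaged 0.34 ± 1.14, 0.84 ± 0.95 and 1.12 ± 0.62 (n = 7 each), so the steps to 6 and 12 h were small beside the spread. On the deposited values its mean went down from 0.36 at 3 h to 0.12 at 6 h. There it was 0.82 at 24 h, below 1.11 in the controls. Fnbp1, the most alike, averaged 0.91 ± 0.31 at 24 h and 0.65 ± 0.15 at 0 h, and its r within groups was 0.71. At 1, 3, 6 and 12 h its means were 0.55, 0.56, 0.51 and 0.52, all below the control mean. On the deposited values it averaged 0.66 at 24 h and 0.77 at 0 h, the opposite order. Cyfip2 had its highest mean at 24 h: it was at 0.20 ± 0.31 (SD, n = 7) at 12 h and 0.93 ± 0.53 (n = 7) at 24 h, after -0.20 ± 0.37 (n = 7) at 6 h. Its larger step on this scale was the last, where Atmin moved by 0.15; on the deposited values its means were -0.23, 0.19 and 0.63 at these times, 2 steps of nearly equal size. The list of genes was itself tied to the scale: of the 5, 4 were among the 5 most alike by Spearman's rho, 3 by r within groups, 1 on the deposited values (Fnbp1) and 0 by r over the 6 group means.

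**Figure D5:**
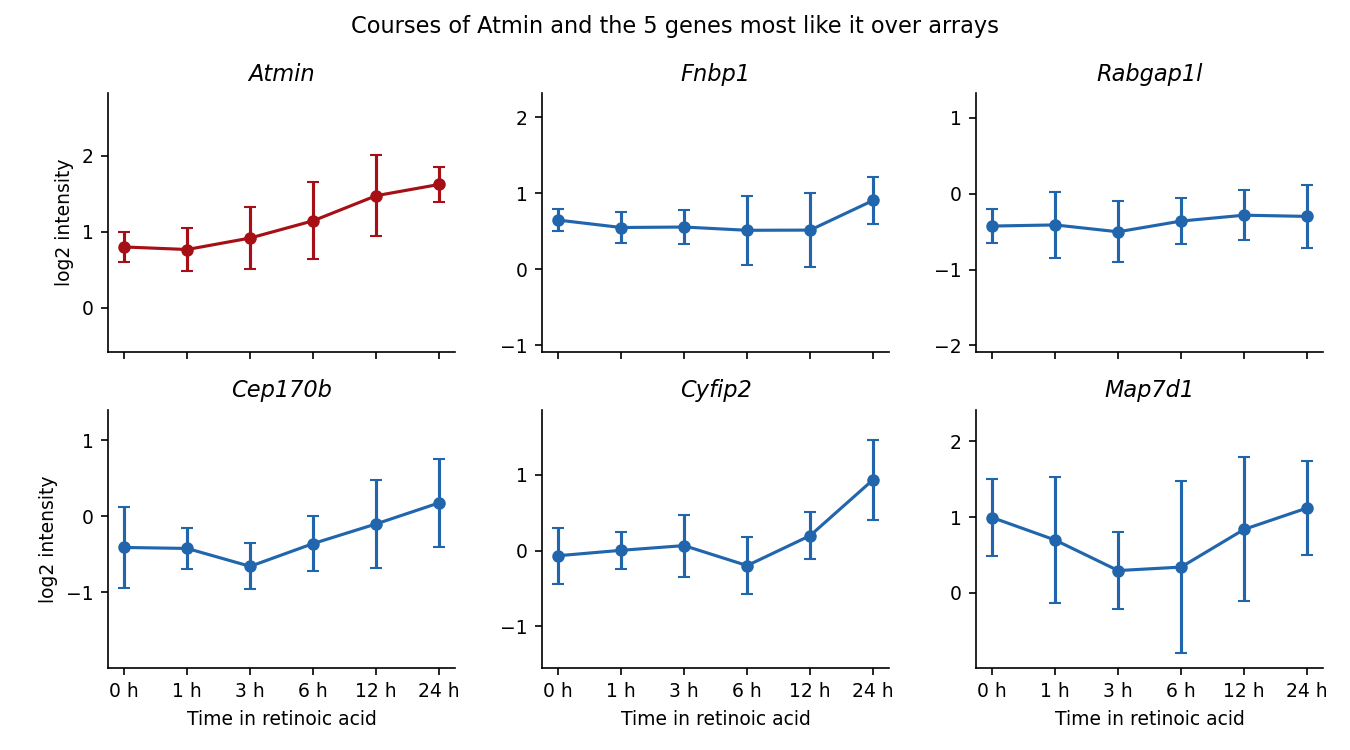
Group means and SD of quantile-normalised log2 intensity by time (evenly spaced) for Atmin and for the 5 genes with the highest r over the 38 arrays; every panel spans the same height. Means of Atmin increase from 1 h on, those of Cep170b and Map7d1 from 3 h on, and those of Cyfip2 from 6 h on.

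Genes that work in the same processes as Atmin gave no call in either contrast. Atm, its partners Nbn and Chek2, and its target Dynll1 were not analysed here, since no named probe carries them. Of a list of 99 genes of the DNA damage response and genome stability, 7 were measured. At 24 h 2 were higher and 5 lower than at 0 h, none (0 of 7) passed limma's adjusted threshold of 0.05, and 2 had an unadjusted p under 0.05; over all 576 probes 1.04% passed and 6.77% had an unadjusted p under 0.05. Their median difference was -0.19, against -0.01 for all probes. The largest differences were -0.52 ± 0.25 (SE) for Dcaf1, a substrate adaptor of a ubiquitin ligase, -0.47 ± 0.15 for the cohesin regulator Pds5b (limma adjusted p = 0.161), -0.36 ± 0.37 for the ubiquitin ligase Huwe1 and 0.20 ± 0.28 for Smc5, a subunit of the SMC5/6 complex in DNA repair. On the deposited values these 4 differences were -0.75, -0.88, -0.95 and 0.09. For late over early times 4 were higher and 3 lower, 0 passed, 1 had an unadjusted p under 0.05 and the median was 0.01, with 0.347% of all probes past the threshold and 13.5% with an unadjusted p under 0.05.

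Of 79 genes of dynein, centrosome and cilium 11 were measured, and 0 passed. At 24 h 8 were higher and 3 lower, with a median difference of 0.11 and 2 with an unadjusted p under 0.05 in limma. Over all 576 probes the median was -0.01, 1.04% passed and 6.77% had such an unadjusted p. Cep170b was at 0.59 ± 0.25 (SE), the dynein heavy chain Dync1h1 at 0.48 ± 0.24, the centrosomal protein Cep192 at -0.39 ± 0.16 and the scaffold Akap9 at 0.37 ± 0.30; on the deposited values these were 0.61, -0.16 (the opposite sign), -0.27 and 0.17. For late over early times 6 were higher and 5 lower, with a median of 0.0037 and 3 with an unadjusted p under 0.05. Over all probes the median was then -0.0017, 0.347% passed and 13.5% had such an unadjusted p. The smallest limma adjusted p of the list was that of Cep170b in this contrast, 0.148, at a difference of 0.58 ± 0.19.

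Of 43 genes of retinoic acid signalling 5 were measured, and 0 passed in either contrast. At 24 h 1 was higher and 4 lower, with a median of -0.16 and 0 with an unadjusted p under 0.05 in limma. All 576 probes had a median of -0.01, with 1.04% passing and 6.77% with such an unadjusted p. The co-regulator Rere was at 0.30 ± 0.23 (SE), the receptor partner Zfp423 at -0.28 ± 0.17, Acin1, a nuclear protein, at -0.20 ± 0.20 and Med13l, part of the Mediator complex, at -0.16 ± 0.24; on the deposited values they were at 0.06, -0.53, -0.97 and -0.05. For late over early times 2 were higher and 3 lower, with a median of -0.01 and 2 with an unadjusted p under 0.05. All probes then had a median of -0.0017, with 0.347% passing and 13.5% with such an unadjusted p. The smallest limma adjusted p was 0.107, for Zfp423 at -0.43 ± 0.14. The largest difference of the list in this contrast was that of Asxl1, -0.60 ± 0.23.

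The array held few markers by which the cell line could be checked. Of 30 neuronal markers 1 was measured, the neurofilament gene Nefh, at 0.98 at 24 h and 1.29 at 0 h and above the floor on every array. Of 13 markers of stromal and endothelial cells 2 were measured, Pxdn and Phldb1, also above the floor on every array (on 8 arrays all probes are), and of 12 glial and 7 immune markers none (0) was.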

How the data were processed

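Per the labels' protocols, the FLA-8000 imager was used for scanning, and Phoretix software for quantification. The deposited values are linear Cy5 intensity values of 576 probes on 38 arrays; in the values, about 55% of the probes of an array lie below 1, and 30 arrays share a lowest value. For background, scaling and floor the method is not given in the sources used, and no detection value was used. Probes were named by the platform annotation, and 472 of 473 gene identifiers were found in RefSeq (GRCm38.p6). The array names no genome build.

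Values were taken to log2 and quantile normalised, and all probes were fitted by limma 3.58.1 (R 4.3.3), using all 38 arrays and a factor of 6 groups (32 residual degrees of freedom). Benjamini-Hochberg adjustment ran over all 576 probes at 0.05, and the procedure was tested on simulated data. Precision is limited by how many arrays there are. The gene, the lists and the alternatives were chosen with earlier results of these data known, and Atmin therefore has no test. Besides Atmin, the genes named are the 5 most and 3 least alike over the arrays and the 4 members of each list with the largest difference at 24 h, and any member that passed; markers that were measured are named too.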

Additional observations from a re-analysis of the deposited data

Results flagged for a closer look

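Of 24 sets of values checked for a sample far from the rest of its group (3 measures of Atmin and the array range, in 6 groups), 3 held one; chance gives about 1 in 20. On the normalised log2 scale 6 h replicate 2 was at 2.18, with the nearest array of its group at 1.27. On the deposited log2 scale control replicate 5 was at 1.19, with the nearest control at 0.92. By place from the brightest, 12 h replicate 5 was at 164, with the nearest array of its group at 49.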

How the results depend on the processing

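Atmin kept a positive difference at 3, 6, 12 and 24 h, for late over early times and in its slope under all settings run; at 1 h the difference was above 0 in 2 of 17. A move was counted when a value shifted by more than the pooled SD within groups, 0.39. The differences at 1, 3 and 6 h were smaller than that, so a fall to 0 there could not be counted. At 6 h the values ran from 0.04 with median centring to 0.55 with range scaling. At 12 h they ran from 0.33 to 1.15 under the same settings. The moves counted, with the slope taken over 1 to 24 h, were these. With the values as deposited, median centring and the range covariate on normalised values, the 24 h difference was 0.35, 0.28 and 0.36, late over early 0.25, 0.18 and 0.27, and the slope 0.0835, 0.0638 and 0.0919. With scaling to 1 interquartile range the 12 h difference was 1.15 and the slope 0.29. These settings keep, remove or stretch the range of the arrays. The cause of the moves was not tested.

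Counts of probes called moved more. At 24 h 6 probes passed, against 11 as deposited, 12 with median centring, 85 with range scaling, 72 and 2 with the range covariate on deposited and normalised values, 11 without the arrays above the floor and 63 with trend and robust variance. For late over early times 2 passed, against 78, 65 and 99 with the first 3 of these, 5 and 6 with the covariate, 4 without the arrays above the floor, 21 with position correction, 166 with array weights, 80 with trend and robust variance, 1 with only the arrays compared and 9 without arrays numbered 1 (added after the values were seen). Leaving out single arrays gave 4 to 10 at 24 h (10 without control replicate 1) and 1 to 12 for late over early times (12 without 24 h replicate 1).

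List members called, 0 in the fit described, were 1 for DNA damage at 24 h as deposited, with median centring and with trend and robust variance, and for late over early times 2 with median centring and 1 with array weights. For dynein, centrosome and cilium they were 1 at 24 h with array weights, and for late over early times 2 as deposited and with median centring, 1 with range scaling, position correction, trend and robust variance and without arrays numbered 1, and 3 with array weights. For retinoic acid signalling they were, late over early, 2 as deposited, with median centring, range scaling and array weights. They were 1 without the arrays above the floor, with position correction, with trend and robust variance and with the replicate block. These counts stand beside the calls over all 576 probes given above for the same settings, among them 166 late over early with array weights. Array weights gave 9 at 24 h, and the replicate block 8 late over early. Nothing about the lists is read from them.

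Replicate numbers are shared between groups, but same-numbered arrays did not deviate together throughout (median r of deviations between -0.05 and 0.31 by number, the highest for number 1), so they were not taken as pairs. With the replicate block the 24 h difference of Atmin was 0.82 ± 0.20 (SE) and late over early 0.75 ± 0.16; 8 probes passed at 24 h and 8 for late over early times. The arrays numbered 1 had the smallest difference of Atmin between 24 h (1.51) and 0 h (1.15); without them it was 0.92.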

Other observations

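The deposited values lie on a grid whose origin was not tested. On 37 of 38 arrays all values above the floor were whole multiples of 1 step, to within 0.000654 of a step, with between 88 and 13105 steps to a value of 1; for the other array, 3 h replicate 2, no step was found up to 20000 to the unit. Atmin amounted to 178 steps on 6 h replicate 1 and to 29888 on control replicate 5, and 1 step was at most 0.562% of its value, so rounding is small beside the spread between arrays.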
